A study of Rattus norvegicus with 4 samples.

Results

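The 5368 regions here are stretches of the rat genome where liver reads were assembled into transcripts outside the annotated genes of their own library. They came from 14446 of 90248 assembled rows, in tables that hold 161958 rows in all. A row was taken if StringTie, the program that assembled the reads, had given it a name of its own instead of a gene symbol, if it was longer than 200 bp, if its TPM value was above 2, and if it overlapped no annotated row of its own table on either strand. Overlapping rows of the same strand were merged across the 4 libraries into regions. A region's value in a library is the summed TPM of all assembled rows of that strand that overlap it, and it is listed at 0 where there is none. Of the regions 61 (1.14%) overlap an annotated row of another library's table. The sums of 413 (7.69%) include a row that overlaps an annotated row. The members were chosen by these limits on length and TPM, so the levels below describe them and test nothing.

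Genome annotations list the transcripts that are known, and an assembler also reports transcripts that they lack. Such rows can be genes that an older annotation missed, long noncoding RNAs, extensions of a gene past its listed end, copies of ribosomal or mitochondrial RNA, processed pseudogenes, or stretches of incompletely spliced RNA. A library made from total RNA keeps RNA without a poly(A) tail and holds more of these than a poly(A)-selected one. An assembler needs overlapping reads, so a weakly covered transcript can be assembled in one library and missed or split in the next.

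The RNA came from livers of 4 male wild type Wistar rats, bought at 6 weeks of age and then acclimatized, 1 rat for each of 4 conditions, all deprived of food and water before anesthesia and all given the agent with oxygen by nose cone. The left lateral lobe was taken. One rat inhaled sevoflurane at 4.5% for 6 h and another desflurane at 6% for 6 h. Each agent had a control rat, killed as soon as it lost consciousness, so the controls had also inhaled the agent. With 1 library per condition, agent, rat and library cannot be told apart. No test was made, and no value below has a replicate check.

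The libraries were of similar depth, between 4.47 and 5.40 Gb of aligned sequence, as derived from the ratio of coverage to FPKM. Coverage is the mean number of reads over a base. The median coverage of the member rows was between 7.73 and 8.76, so many regions rest on few reads. Hepatocyte markers such as albumin summed to between 109646 and 126788 TPM. Kupffer cell markers summed to 518 TPM in the sevoflurane control, 330.2 after sevoflurane, 410.4 in the desflurane control and 479 after desflurane, and no row was found for Clec4g, Krt7 or Cd79a. In bulk tissue, fewer cells of a type and less RNA per cell cannot be told apart.

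Many regions were not assembled in every library. A row was present in all 4 libraries for 2672 regions (49.8%), in 3 for 640, in 2 for 675 and in 1 library only for 1381 (25.7%). The assembler had placed 3366 regions on a strand and gave none to 2002. Of the stranded regions 66.0% had a row in all 4 libraries, against 22.5% of those without a strand. The median length was 10742 bp with a strand and 786 bp without. Assembly also went with level. Of 2388 regions whose highest TPM was between 2 and 5, 22.5% were assembled in all 4 libraries, against 80.7% of 1614 regions between 10 and 100 TPM. Above 1000 TPM the share was 50% of 44 regions.

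**Figure D1:**
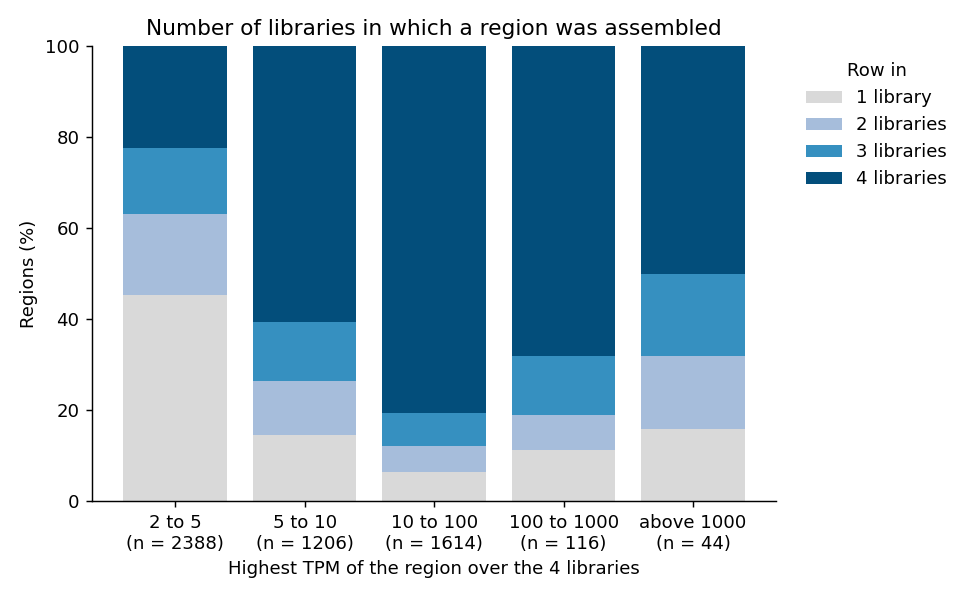
Share of regions (vertical axis, percent) assembled in 1, 2, 3 or 4 libraries (shades), by the highest TPM of the region over the 4 libraries (horizontal axis). Presence in all 4 libraries goes from 22.5% at 2 to 5 TPM to 80.7% at 10 to 100 TPM and is 50% above 1000 TPM.

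The regions lay on all chromosomes, with most on chromosome 1 (627) and 108 on unplaced sequences. The median distance to the nearest annotated row was 27426 bp, and 1733 regions (32.3%) were within 10 kb of one. Of these, 202 lay downstream of the gene on its strand, 258 upstream on its strand and 740 on the opposite strand. The library needed for a region to enter could be a single one: chr10:52388625-52392736 on the minus strand entered with 2.0 TPM in the desflurane control and had 0.810 and 1.53 TPM in the sevoflurane control and 6 h libraries and 1.74 after desflurane. chr11:16011959-16013525 and chr4:62195727-62197084 entered at the same level. The rows just below the limit had 1.99996, 1.99904 and 1.99883 TPM.

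The most abundant region, chr8:85480298-85480634, was 337 bp long and 7604 bp from Cilk1, a kinase gene. It had 11088 and 11316 TPM in the sevoflurane control and 6 h libraries and 10584 and 12109 TPM in those of desflurane. Next came chrX:23467571-23467861, 291 bp long between Cldn34a and Shroom2, with 8956 TPM in the control and 9046 after 6 h of sevoflurane, and 8503 and 10248 for desflurane. Both were nearly level across the 4 libraries. Where RefSeq's later assembly, GRCr8, shows the same neighbouring genes, it lists a pseudogene between them in both places, Rpl12-ps1 and Rab7a-ps1, the latter beside a protein-coding gene, but the regions were not matched to these by sequence or coordinate.

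chr8:181064-182330, near the start of the chromosome, had 4962 TPM in the sevoflurane control, 5557 after sevoflurane, 4234 in the desflurane control and 5656 after desflurane. chr7:71472480-71473049 between Ptdss1 and Sdc2 had 4820.5 and 5386 TPM in the sevoflurane control and 6 h libraries and 3628 and 3349.6 TPM in those of desflurane, and chr8:63239743-63239946 between Tbc1d21 and Insyn1 had 4493 TPM in the control and 5005 after 6 h of sevoflurane, and 3348 and 3188 for desflurane. The last pair were higher in both sevoflurane-arm libraries than in both desflurane-arm libraries, whether control or 6 h. The others of the 10 most abundant regions were mitochondrial or lay near ribosomal RNA genes.

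The mitochondrial genome, where the annotation has no row, shows how the assembler's strand call sets a region's value. One region held rows on the minus strand, with 6648 TPM in the sevoflurane control, 6968 after sevoflurane and 0 in both desflurane-arm libraries. The other held rows without a strand, with 0, 7176, 6032 and 6666 TPM in the order sevoflurane control, sevoflurane 6 h, desflurane control and desflurane 6 h. With the strand ignored the values were 6648, 14144, 6032 and 6666 TPM, because the sevoflurane 6 h library held a row of each kind over the same stretch. No change of mitochondrial RNA can be read from these sums.

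Ribosomal RNA makes up most of the RNA of a cell, and the library kit was meant to remove it. Within 500 kb of an annotated ribosomal RNA row lay 44 regions, 17 with a row in all 4 libraries. Their values summed to 23935 TPM in the sevoflurane control, 28176 after sevoflurane, 59274 in the desflurane control and 20402 after desflurane. A row that touches several regions enters this sum more than once, and rows called on another strand can be left out. After sevoflurane chr6:30628050-30630900 was listed at 0, while rows of any strand gave 5912 TPM there. The annotated Rn18s gene, for the RNA of the small ribosomal subunit, had 5139, 13226, 20510 and 3800 TPM in the same order. The desflurane control was the highest library for this gene and in the sum, but no total of ribosomal RNA can be read from the sum. Of these regions 11 had a single row of like span in each library, and 6 of them were above 500 TPM throughout. All 6 were higher after sevoflurane than in its control, all 6 were lower after desflurane than in its control, and 5 were highest in the desflurane control. chr6:30640364-30641631 on the minus strand, 1075 bp from LOC257642, had 2446 TPM in the sevoflurane control, 4226 after sevoflurane, 7839 in the desflurane control and 2099 after desflurane. chr14:46329443-46330092 had 845 and 1704 TPM in the sevoflurane control and 6 h libraries and 2587 and 559.8 TPM in those of desflurane, which is more than 2-fold up with one agent and down with the other. By coverage per aligned Gb the sevoflurane ratio was 1.95, under the limit. The part of ribosomal RNA carried into the libraries in these differences was not tested.

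**Figure D2:**
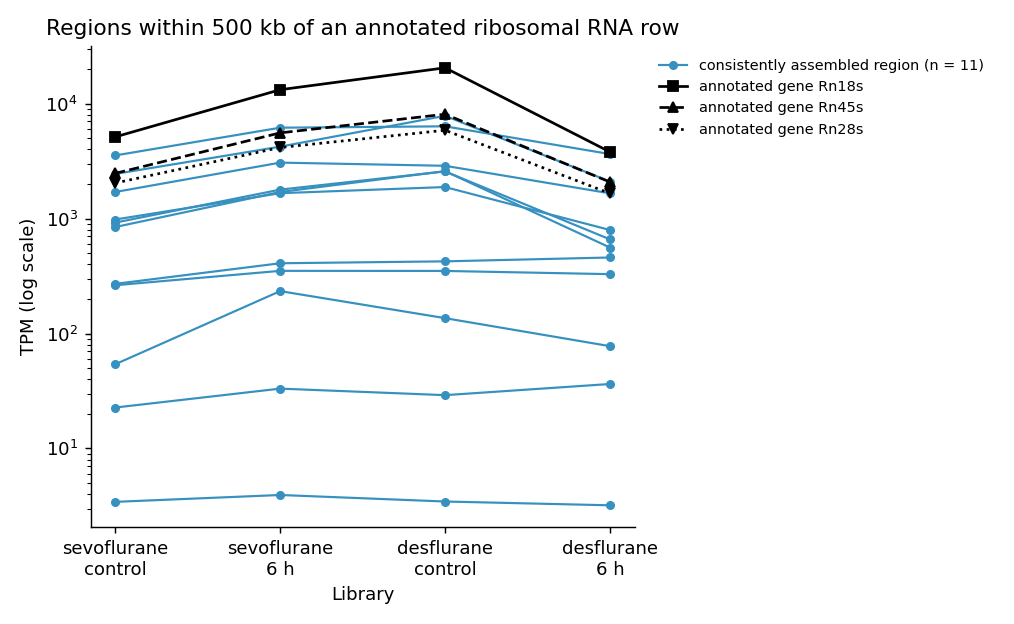
TPM (vertical axis, log scale) in the 4 libraries (horizontal axis) of the 11 regions assembled as 1 row of like span in each library within 500 kb of an annotated ribosomal RNA row (blue) and of the annotated genes Rn18s, Rn45s and Rn28s (black). The 6 most abundant regions and Rn18s, at 5139, 13226, 20510 and 3800 TPM, go up from left to right over the sevoflurane libraries and down over the desflurane libraries.

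The first comparison asks which regions were up- or downregulated more than 2-fold after 6 h against the respective control, with TPM above 2 in the higher library. With sevoflurane 776 regions (14.5%) were up and 750 (14%) down. Among 9993 annotated genes the same rule called 2.18% up and 3.22% down. With desflurane 1144 regions (21.3%) were up, against 2.75% of genes, and 950 (17.7%) were down, against 1.46% of genes. In all, 3118 regions (58.1%) passed with at least 1 agent. Scaling by the median ratio of genes gave 758 up and 768 down with sevoflurane. With desflurane it gave 1033 up and 1011 down, nearly equal numbers. The controls, which differ in agent, rat and library, were as far apart. The sevoflurane control was higher in 687 regions (12.8%) and the desflurane control in 1062 (19.8%), against 1.14% of genes in either direction. With FPKM in place of TPM this split turned, to 351 higher in the sevoflurane control and 272 higher in the desflurane control. A gene is quantified in every library, while a region depends on being assembled, so the shares do not measure the same thing.

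Most of these differences were between a row and no row. The lower library was listed at 0 for 548 of the 776 regions up with sevoflurane (70.6%), 545 of the 750 down (72.7%), 806 of the 1144 up with desflurane (70.5%) and 740 of the 950 down (77.9%). Their median TPM in the higher library was between 3.41 and 3.66. In 184, 174, 286 and 239 of them, respectively, the library listed at 0 held an assembled row over the same stretch with another strand or none. The region chr18:80861008-80938957 on the minus strand, between Zfp516 and Zadh2, is such a case. It was listed at 0 in both controls and at 30.7 and 9.38 TPM after sevoflurane and desflurane. Over any strand it had 42.9, 30.7, 31.8 and 42.4 TPM.

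**Figure D3:**
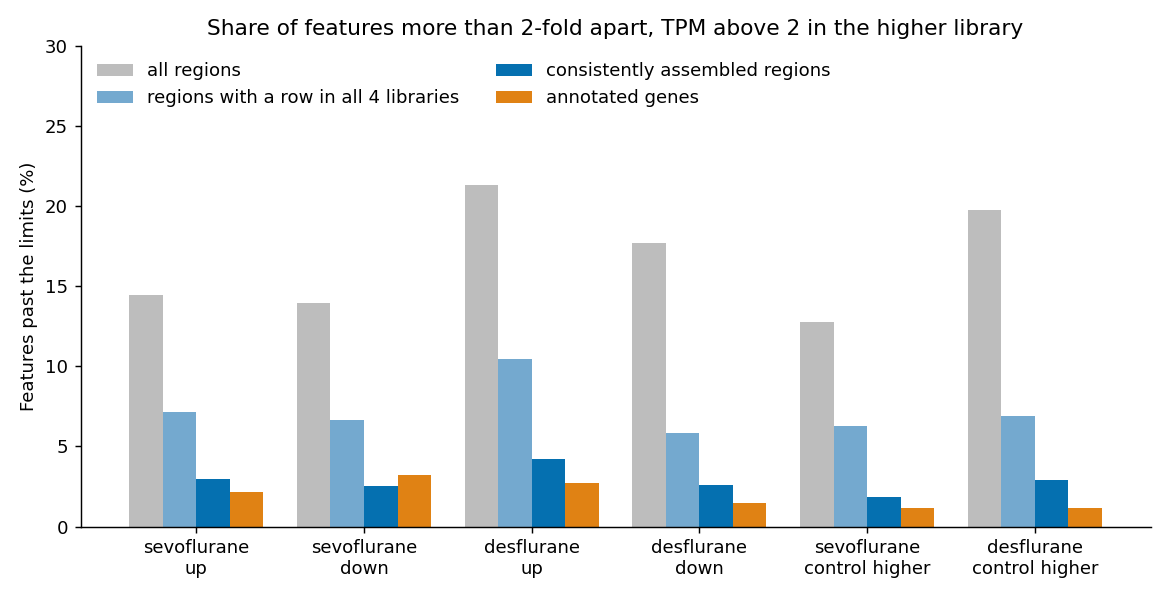
Share of features (vertical axis, percent) past the limits in each comparison of 2 libraries (horizontal axis), for all 5368 regions, the 2672 with a row in all 4 libraries, the 1066 consistently assembled regions and 9993 annotated genes (bars). For desflurane up the bars stand at 21.3%, 10.4%, 4.22% and 2.75%.

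Most of the largest fold changes involved rows that had run into a neighbouring gene. The 5 largest were taken for each agent and direction among regions with TPM above 2 in both libraries. Of these 20 entries, 18 held a row that reached into an annotated row in at least 1 library, so that its sum there covers annotated sequence as well. chr7:99155397-99155859 and chr7:99183152-99183468, on either side of Cyp2b1 on its strand, are examples. Cyp2b1 is a drug-metabolizing cytochrome P450 of the liver and had 17.8, 1632, 16.1 and 1090.2 TPM. The upstream region had 1.95 TPM in the control and 1286 after 6 h of sevoflurane, and 3.10 and 858 for desflurane. At 6 h both regions were covered by 1 row that spanned the gene, of 1286 and 858 TPM, and rows outside the gene were listed at 0. In the same way, chr1:76764709-76780255 between Sult2a6, a sulfotransferase gene, and Selenow had 2.52 TPM in the desflurane control and 1332 after desflurane, where its row reached into an annotated row. chr2:210812151-210816619 between Gstm1 and Gstm4, glutathione transferase genes, had 1762, 0, 2.17 and 1247 TPM, and chr4:30277174-30280934 between Pon1 and Pon3, paraoxonase genes, had 1154, 928, 7.87 and 1143 TPM. In rows that stayed outside genes all 3 had at most 7.87 TPM. The regions beside Ghr, Nucb2, Il6r, Akr7a3 and Plin2 were of this kind too.

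Another region beyond Cyp2b1 did not run into it. chr7:99184932-99186494, without a strand and 3158 bp past the gene, was listed at 0 in both controls and had 51.8 TPM after sevoflurane and 29.5 after desflurane. A region with rows outside genes at 6 h, chr1:82790770-82804428 between Cyp2s1 and RGD1564380 on the plus strand, had 6.48 TPM in the sevoflurane control, 546 after sevoflurane, 5.52 in the desflurane control and 452 after desflurane. In its sevoflurane control the only row overlapped an annotated row. The region overlaps Ceacam6 as annotated in another library's table, a gene with at most 0.018 TPM in any library. Both 6 h libraries were above both controls at both regions. At the second the spans of the rows differed 29.5-fold between libraries, and rows of any strand gave 14.4 TPM in the desflurane control.

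To set these cases aside, regions were kept that had exactly 1 row in each library, spans that differed by at most 25%, and no row that overlapped a gene. These 1066 consistently assembled regions (19.9%) were defined after the values were seen. Their median length was 10516 bp and the median of their mean levels 11.2 TPM. With sevoflurane 32 of them (3.0%) were up and 27 (2.53%) down, and with desflurane 45 (4.22%) were up and 28 (2.63%) down. For genes these shares were 2.18%, 3.22%, 2.75% and 1.46%, as above. Between the controls 20 (1.88%) were higher with sevoflurane and 31 (2.91%) with desflurane, against 1.14% of genes in either direction. Among features above 2 TPM in all 4 libraries, 4.67% of these regions and 3.40% of genes differed more than 2-fold with sevoflurane, and 6.42% and 3.08% with desflurane. For the 1028 of these regions above 2 TPM in all libraries the median log2 ratio of 6 h to control was 0.07 for sevoflurane and 0.14 for desflurane. For genes with the same limit it was 0.05 and 0.12. Scaling by the median ratio of genes moved the latter to 0.01 and -0.01. The middle 50% of the same 1028 regions spanned 0.47 log2 units with sevoflurane and 0.50 with desflurane, against 0.43 and 0.39 for genes with the same limit. Requiring a row in every library leaves out regions that were listed at 0 in one, so these counts cannot show such differences.

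The deposited coverage did not always follow TPM. With coverage per aligned Gb in place of TPM for the ratio, a check added after values were seen, 39 consistently assembled regions were up and 43 down with sevoflurane and 50 up and 55 down with desflurane. Of the regions called by TPM 20 of 32, 23 of 27, 29 of 45 and 26 of 28 were called by coverage too. Between the controls the split turned, with 68 regions higher for sevoflurane and 29 for desflurane. Which of the measures is nearer to the RNA amount was not tested, and regions below whose call at 6 h differs by coverage are named as such.

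**Figure D4:**
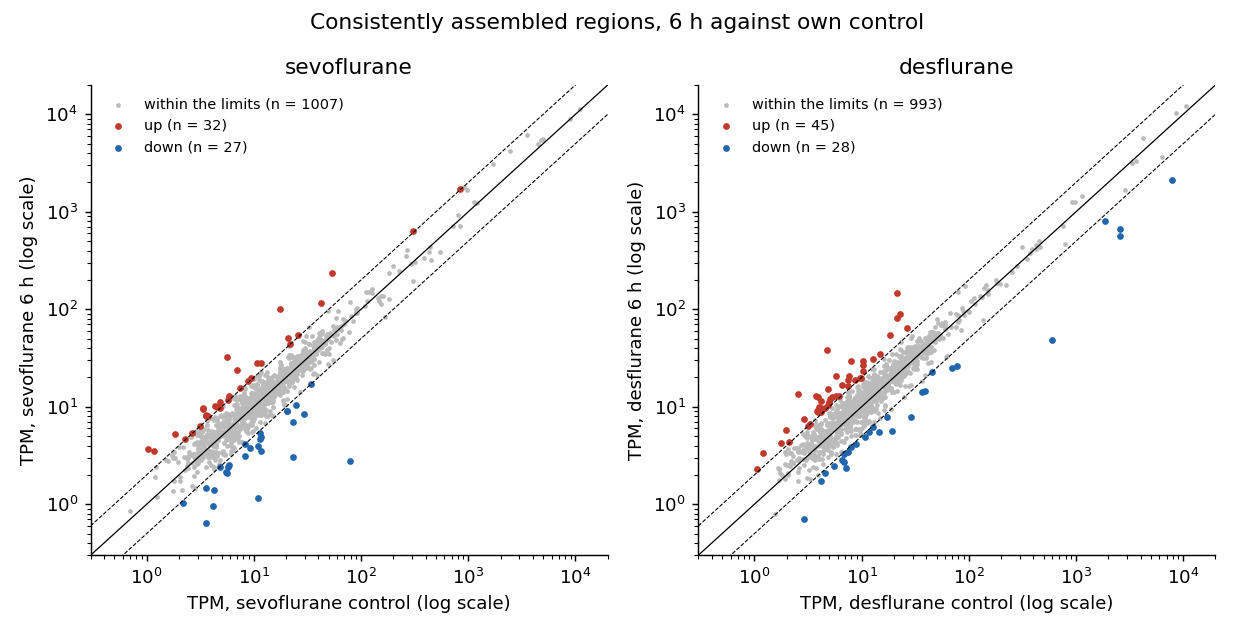
TPM at 6 h (vertical axis, log scale) against TPM in the respective control (horizontal axis, log scale) for the 1066 consistently assembled regions, each point 1 region. Solid and dashed lines mark equal values and 2-fold differences, with 32 regions up and 27 down for sevoflurane (left) and 45 up and 28 down for desflurane (right).

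The next comparison asks which regions passed the limits with both agents. Upregulated with both against the respective controls were 160 regions (2.98%, against 0.59% of genes), and downregulated 132 (2.46%, against 0.31%). The 160 were 20.6% of the regions up with sevoflurane and 14% of those up with desflurane. Of all regions 21.3% were up with desflurane and 14.5% with sevoflurane, so these overlaps are near the shares of all regions. The shared genes were 27.1% and 21.5% of the gene lists, where 2.75% and 2.18% of all genes were up. The 132 were 17.6% and 13.9% of the lists down, beside 17.7% and 14% of all regions down with desflurane and sevoflurane. The shared genes down were 9.63% and 21.2%, beside 1.46% and 3.22% of all genes. Against both controls, which the 2 agents then share, 137 regions (2.55%) were up with both agents and 118 (2.20%) down with both, beside 0.49% and 0.25% of genes. The 20 of these that were named by rank, 10 in each direction, were listed at 0 in both lower libraries. The ranking puts a value of 0 first, so this follows from it. The highest of those up was chr13:89253417-89254357 between Atf6 and Dusp12, with 156 TPM after sevoflurane and 144 after desflurane. Rows of any strand gave it 149 TPM in the desflurane control. Among the 1066 consistently assembled regions 8 (0.75%) were up with both agents against the respective controls and 5 (0.47%) against both controls. Downregulated were 2 (0.19%) and 1 (0.094%). The 8 were 25% of those up with sevoflurane and 17.8% of those up with desflurane, where 4.22% and 3.0% of the 1066 were up with the other agent. The 2 were 7.41% and 7.14% of the lists down, beside 2.63% and 2.53%. As for genes, and unlike all regions, these overlaps are above the shares of the whole set. The shares of the 1066 are near or below those of genes. The regions that follow are therefore described one by one, and the counts show nothing particular to them.

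Among the 5 consistently assembled regions up with both agents against both controls, chr2:235738400-235760416 had the largest ratios to the respective controls. It lies on the plus strand between Casp6 and Ostc and is 22017 bp long. It had 17.5 and 101 TPM in the sevoflurane control and 6 h libraries and 21.6 and 148 TPM in those of desflurane, which is 5.76-fold and 6.86-fold the respective controls. Both 6 h libraries were more than 2-fold above both controls, as the choice of this region requires. Against the other agent's control the ratios were 4.65 for sevoflurane and 8.49 for desflurane. Between these neighbours RefSeq on GRCr8 lists, on the same strand, Etnppl, an enzyme gene of phosphoethanolamine breakdown, with a length of 21618 bp. The annotated neighbours were within 2-fold of their controls: Casp6 had 28.2, 21.0, 26.1 and 32.8 TPM and Ostc 136, 116, 121 and 112.

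Another was chr1:232298824-232299067, a 244 bp region without a strand, far from any gene between Tle4 and Psat1, with 5.63 TPM in the control and 32.3 after 6 h of sevoflurane, and 10.3 and 29.4 for desflurane. chr16:76513728-76519890 between Angpt2 and Csmd1, 6163 bp long, had 7.0 TPM in the sevoflurane control, 23.7 after sevoflurane, 10.4 in the desflurane control and 26.8 after desflurane. chr15:80225448-80225898 next to Klhl1 had 5.75 and 11.7 TPM in the sevoflurane control and 6 h libraries and 5.79 and 20.8 TPM in those of desflurane, and a region of 708 bp on an unplaced sequence had 20.7 TPM in the control and 51.1 after 6 h of sevoflurane, and 22.9 and 89.0 for desflurane. All were chosen as more than 2-fold above both controls with each agent, so this order of the libraries follows from the choice. By coverage the sevoflurane ratio of the Klhl1 region was 1.96, under the limit, and the others kept theirs. None of these 4 had been given a strand.

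The 1 consistently assembled region lower with both agents than in both controls was chr4:153724132-153735021 on the minus strand, 10890 bp long, between Mical3 and Pex26. It had 10.9 TPM in the sevoflurane control, 1.16 after sevoflurane, 10.7 in the desflurane control and 4.92 after desflurane, which is 9.38-fold and 2.18-fold below the respective controls. The sevoflurane library was the lowest. The controls were alike in these rows, but with rows of any strand the desflurane control had 26.7 TPM, and the coverage was 9.20 and 20.1 in the sevoflurane and desflurane controls. By coverage per aligned Gb the region was not lower by more than 2-fold after desflurane than in both controls. RefSeq on GRCr8 lists only 3 long noncoding RNAs between these neighbours.

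Some regions past the limits with both agents were split into several rows, and their sum and their highest row differed. chr10:20663695-20818528 on the minus strand, 154834 bp long beside Rars1, had 56.6 and 26.7 TPM in the sevoflurane control and 6 h libraries and 56.1 and 20.5 TPM in those of desflurane as a sum. It was assembled as 2 rows, 1 row, 3 rows and 1 row in these libraries, and its highest row had 30.7, 26.7, 29.8 and 20.5 TPM, within 2-fold everywhere. RefSeq lists Wwc1, a gene of the Hippo growth-control pathway, of 154265 bp there on the same strand. chr4:150547471-150616904, beside Zfp9, had 10.4 TPM in the control and 4.36 after 6 h of sevoflurane, and 13.0 and 4.76 for desflurane as a sum of 3, 1, 4 and 1 rows, and a highest row of 4.34, 4.36, 4.46 and 4.76 TPM. RefSeq lists Ankrd26, of 69421 bp, on the same strand there, against 69434 bp for the region. chr6:50528822-50597117, 560 bp from Dld, had a sum of 4.19 TPM in the sevoflurane control, 8.40 after sevoflurane, 4.16 in the desflurane control and 14.1 after desflurane but a highest row between 4.16 and 5.60 TPM. One region kept its difference: chr1:13330430-13371817 between Reps1 and Ccdc28a, where RefSeq lists Ect2l, had 2.44 and 8.42 TPM in the sevoflurane control and 6 h libraries and 1.59 and 6.15 TPM in those of desflurane, and its highest row after desflurane had 4.82 TPM.

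**Figure D5:**
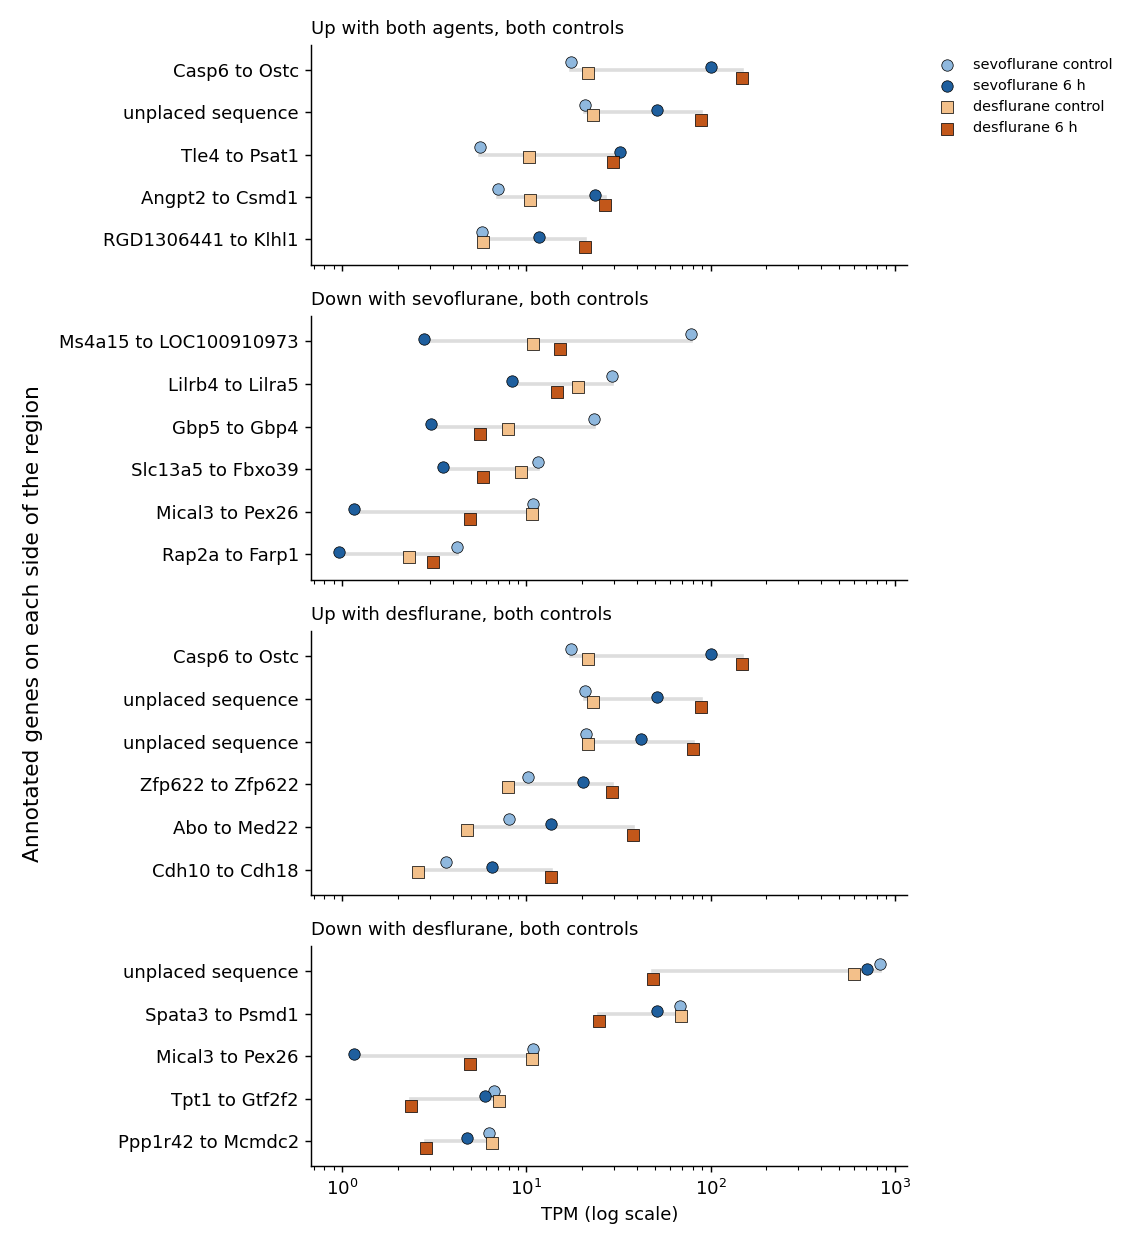
TPM (horizontal axis, log scale) in each library (colours and shapes) of up to 6 consistently assembled regions per panel past the limits against both controls, named by the annotated genes on each side (vertical axis), with 1 line per region. By the choice of regions both 6 h libraries lie to the right of both controls in the top panel, as for Casp6 to Ostc at 17.5, 101, 21.6 and 148 TPM. In the second panel the choice sets the sevoflurane 6 h library below both controls, and it is also below the desflurane 6 h library.

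Against both controls 448 regions (8.35%, against 1.17% of genes) were up with sevoflurane and 299 (5.57%, against 1.36%) down, of which 12 and 16 were consistently assembled. Among these 12, chr10:57641171-57653344 on the minus strand between Dhx33 and Mis12 was abundant, with 42.6 TPM in the control and 116 after 6 h of sevoflurane, and 39.3 and 51.3 for desflurane. The sevoflurane library stood apart from the other 3 in TPM but not in coverage, which was 66.6, 77.1, 73.7 and 86.3 in the same order, and the sevoflurane ratio per aligned Gb was 1.19. RefSeq on GRCr8 lists there Derl2, a gene of the degradation of misfolded proteins in the endoplasmic reticulum, of 11699 bp against 12174 bp. chrX:111179555-111192008 between Cldn2 and Rbm41 had 1.85 TPM in the sevoflurane control, 5.27 after sevoflurane, 2.54 in the desflurane control and 3.47 after desflurane.

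Of the regions down with sevoflurane, chr1:227094044-227108436 on the minus strand between Ms4a15 and LOC100910973 had 78.2 and 2.78 TPM in the sevoflurane control and 6 h libraries and 10.8 and 15.2 TPM in those of desflurane. It was 28.2-fold below its control, the one consistently assembled region among the 5 largest decreases with this agent, but the sevoflurane control was also well above the desflurane control, and the desflurane library was above its own control. RefSeq lists Ms4a18, of the family of four-pass membrane proteins that includes CD20, between these genes. chr2:248215387-248222582 on the plus strand between Gbp5 and Gbp4 had 23.2 TPM in the control and 3.05 after 6 h of sevoflurane, and 7.92 and 5.60 for desflurane. Gbp genes encode GTPases that interferon induces, RefSeq lists Gbp7 here, and annotated Gbp5 had 11.8, 1.36, 4.85 and 3.60 TPM. chr1:73609727-73619560 between Lilrb4 and Lilra5, leukocyte receptor genes, had 29.2 TPM in the sevoflurane control, 8.40 after sevoflurane, 19.0 in the desflurane control and 14.7 after desflurane, and RefSeq lists Lilrb3 of 9572 bp there against 9834 bp. chr10:58860650-58872786 between Slc13a5 and Fbxo39 had 11.6 and 3.53 TPM in the sevoflurane control and 6 h libraries and 9.38 and 5.79 TPM in those of desflurane, and RefSeq lists Xaf1, an interferon-induced gene of cell death. By coverage the Lilrb4 to Lilra5 region was past the limit against its own control only. chr15:105941739-105943204 between Rap2a and Farp1 had 4.21 TPM in the control and 0.955 after 6 h of sevoflurane, and 2.29 and 3.10 for desflurane. These 5 regions and the one between Mical3 and Pex26 are the 6 with the largest ratios. They were picked as lower after sevoflurane than in both controls, so a low sevoflurane 6 h library follows from the choice. The choice also favours a high sevoflurane control. In TPM the sevoflurane control was the highest library, but between Mical3 and Pex26 only at 10.9 against 10.7 TPM in the desflurane control. With rows of any strand, and by coverage, the desflurane control was the higher there. The summed Kupffer cell markers, 6 of 6 with a row, were highest in the sevoflurane control and lowest after sevoflurane, at 518 and 330 TPM. So were the lymphocyte markers, 4 of 5 with a row, at 4.79 and 1.45 TPM. Pancreatic acinar markers, 6 of 6 with a row, had 47.4, 18.5, 15.2 and 15.7 TPM, and erythroid markers, 3 of 3, had 45.5, 30.3, 31.7 and 17.8 TPM, both highest in the sevoflurane control. Other markers were not highest in that control. Those of sinusoidal endothelium, 4 of 5 with a row, had 148.7, 143.7, 144.4 and 166.6 TPM. Stellate cell markers, 5 of 5, had 77.1, 69.7, 86.0 and 86.9 TPM. Cholangiocyte markers, 3 of 4, had 11.6, 12.5, 16.9 and 11.0 TPM. The part of any of these cells was not tested.

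Against both controls 796 regions (14.8%, against 1.25% of genes) were up with desflurane and 246 (4.58%, against 0.57%) down, of which 24 and 5 were consistently assembled. chr3:4762079-4766381 on the minus strand between Abo and Med22 had 8.08 TPM in the sevoflurane control, 13.7 after sevoflurane, 4.74 in the desflurane control and 38.0 after desflurane, 8.03-fold its control. chr2:69654186-69654760 between Cdh10 and Cdh18, which encode cell adhesion proteins, had 3.67 and 6.50 TPM in the sevoflurane control and 6 h libraries and 2.57 and 13.6 TPM in those of desflurane, and chr2:78391860-78401656 beside Zfp622 had 10.2 TPM in the control and 20.2 after 6 h of sevoflurane, and 7.96 and 29.3 for desflurane. At each of these the sevoflurane library was also above its control, by less than 2-fold. Among consistently assembled regions the largest ratio down with desflurane against both controls was on an unplaced sequence with no annotated gene, in a region of 751 bp on the plus strand. It had 836 TPM in the sevoflurane control, 708 after sevoflurane, 598 in the desflurane control and 48.6 after desflurane, so that the desflurane library was 12.3-fold below its control and the others were much closer to each other. chr9:93061822-93072362 on the plus strand between Spata3 and Psmd1 had 68.5 and 51.0 TPM in the sevoflurane control and 6 h libraries and 69.2 and 24.9 TPM in those of desflurane. chr15:57910962-57912689, opposite Tpt1, had 6.71 TPM in the control and 5.97 after 6 h of sevoflurane, and 7.10 and 2.36 for desflurane.

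The regions within 50 kb of genes of known function were counted next. Near genes of drug metabolism lay 95 regions, of which 20 (21.1%) were up and 13 (13.7%) down with sevoflurane, and 20 (21.1%) up and 17 (17.9%) down with desflurane. Of all regions 14.5%, 14%, 21.3% and 17.7% were, in the same order. The listed genes themselves were 12 up and 4 down with sevoflurane and 21 up and 2 down with desflurane, of 130 above 2 TPM. Of all genes 2.18%, 3.22%, 2.75% and 1.46% were. Of the 19 consistently assembled regions near them 1 was down with sevoflurane and 2 up with desflurane, where 2.53% and 4.22% of all consistently assembled regions were. chr14:22044457-22066994, 5031 bp from Sult1e1, the estrogen sulfotransferase gene, on the opposite strand, had 61.6 TPM in the sevoflurane control, 95.1 after sevoflurane, 45.1 in the desflurane control and 58.3 after desflurane, and Sult1e1 had 856, 1619, 956 and 821. Both were highest after sevoflurane. chr12:40417954-40447652 between Brap and Aldh2, where RefSeq lists Acad10, had 51.4 and 55.1 TPM in the sevoflurane control and 6 h libraries and 51.5 and 57.2 TPM in those of desflurane. This is nearly level in TPM but not in coverage, which was 43.8, 46.9, 90.6 and 96.5 in the same order.

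Near immune and interferon genes lay 63 regions. Of these 11 (17.5%) were up and 11 (17.5%) down with sevoflurane, and 15 (23.8%) up and 16 (25.4%) down with desflurane. Of all regions 14.5%, 14%, 21.3% and 17.7% were, in the same order. Of the 104 listed genes 0 were up and 38 down with sevoflurane, and 1 was up and 5 down with desflurane. Of all genes 2.18%, 3.22%, 2.75% and 1.46% were. Of 6 consistently assembled regions 1 was up and 1 down with sevoflurane and none passed with desflurane, too few to set beside the 3.0% and 2.53% of all such regions. chr20:2662958-2678213 on the minus strand, 26162 bp from RT1-CE15 in the major histocompatibility complex, had 513 TPM in the control and 388 after 6 h of sevoflurane, and 291 and 389 for desflurane, each a sum of 2 or 3 rows. chr10:43645517-43655657, 6514 bp past Igtp on its strand, had 304 TPM in the sevoflurane control, 196 after sevoflurane, 224 in the desflurane control and 179 after desflurane. Igtp, an interferon-induced GTPase gene, had 107, 30.8, 51.6 and 28.8 TPM, and RefSeq lists Irgm2, of the same family and of 10142 bp, where the region has 10141 bp. Both were lower at 6 h than in the controls, with the larger ratios for the gene.

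Near genes of secreted plasma proteins lay 29 regions, 8 (27.6%) up and 3 (10.3%) down with sevoflurane and 7 (24.1%) up and 3 (10.3%) down with desflurane, against the same 14.5%, 14%, 21.3% and 17.7% of all regions. chr4:154761580-154763096 beside Mug1, a protease inhibitor gene, had 181 and 129 TPM in the sevoflurane control and 6 h libraries and 194 and 182 TPM in those of desflurane, against 2679.7, 1989, 2669.9 and 2824 TPM for Mug1. chr6:33133493-33150630, opposite Apob, had 5.73 TPM in the control and 8.34 after 6 h of sevoflurane, and 4.17 and 11.4 for desflurane, 2.73-fold its control with desflurane. By coverage per aligned Gb the ratios were 0.545 with sevoflurane, the other direction, and 1.89 with desflurane, under the limit. Of 12 regions near stress and fasting genes none was up and 2 (16.7%) were down with sevoflurane, and 4 (33.3%) were up and 1 (8.33%) down with desflurane, few beside the shares of all regions just given. chr3:171237474-171249612, past Pck1, had 11.0 TPM in the sevoflurane control, 8.62 after sevoflurane, 3.23 in the desflurane control and 10.7 after desflurane, and Pck1, the gene of a rate-setting enzyme of glucose synthesis, had 1079, 980.4, 414 and 951. The desflurane control was the lowest library for both. Only 4 regions lay near clock genes. chr2:197992881-198002620 beside Ciart, a repressor of the clock, had 2.70 and 0.826 TPM in the sevoflurane control and 6 h libraries and 2.21 and 1.11 TPM in those of desflurane, and Ciart 4.01, 7.25, 1.97 and 4.03 TPM, so that Ciart was higher at 6 h and the region lower.

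Across consistently assembled regions within 10 kb of a gene, the log2 change of the region and of the gene was compared with a pseudocount of 1 TPM. For 47 regions downstream on the gene's strand Pearson's r was 0.52 with sevoflurane and 0.10 with desflurane, while Spearman's rho was 0.04 and 0.19. For 74 upstream regions r was 0.25 and 0.05 and rho 0.24 and 0.03. For 208 on the opposite strand r was -0.04 and 0.09 and rho -0.08 and 0.09. For 52 without a strand r was 0.41 and 0.15 and rho 0.28 and 0.21. These are correlations across regions of the same libraries, and neither regions nor genes are replicates.

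Of the 3366 stranded regions 2648 had flanking genes that RefSeq places in the same order on GRCr8. Between the flanks exactly 1 gene on the region's strand was within 10% of its length for 542 of them, 456 protein-coding and 86 long noncoding. On the opposite strand it was 109. Of the 542, 231 were consistently assembled. chr11:83907561-83927711 between Clcn2 and Psmd2, where RefSeq lists the translation initiation factor gene Eif4g1, had 114 TPM in the control and 120.4 after 6 h of sevoflurane, and 114 and 114 for desflurane. chr13:99091317-99102802 between Acbd3 and Sde2, with the histone gene H3f3a, had 144 TPM in the sevoflurane control, 131 after sevoflurane, 131 in the desflurane control and 135 after desflurane. chr12:9446839-9456746 between Flt3 and Cdx2, with Urad, a gene of urate breakdown, had 127 and 162 TPM in the sevoflurane control and 6 h libraries and 152 and 158 TPM in those of desflurane. chr1:219329177-219335045 between RGD1307603 and Cdk2ap2, with Cabp2, had 167 TPM in the control and 83.8 after 6 h of sevoflurane, and 112 and 131 for desflurane, 1.99-fold below the control with sevoflurane, inside the limit. By coverage per aligned Gb its ratios were 0.58 with sevoflurane and 1.82 with desflurane. By that measure, but not by TPM, the sevoflurane control was past the limit above the desflurane control. The regions were not matched to these genes by sequence or coordinate, and a genome of the build used by the study was not used here, so no sequence is shown.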

How the data were processed

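RNA from 4 rat livers was sequenced as stranded total RNA libraries, 1 per condition. The authors trimmed reads with sickle, mapped them to rn6 with HISAT2, used SAMtools and assembled and quantified them with StringTie and the refGene annotation. The deposited tables give coverage, a mean read depth signal per row, with FPKM and TPM values per row. TPM was the main value, since it sums to the same total in each library.

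Regions were built in pandas 2.3.3 and numpy 2.4.6 under Python 3.11.15, with scipy 1.17.1 and matplotlib 3.10.9. A region passed when it differed more than 2-fold with TPM above 2 in the higher library, as did an annotated gene. Regions were named by rank among those past the limits, by level, and by distance to listed genes. The members and lists were chosen with earlier results of these data known. The consistently assembled set, the highest-row values, the coverage ratios and the RefSeq neighbours were chosen after values were seen. RefSeq on GRCr8 was used for gene names and order only. The scripts were tested on simulated data. Coordinates are rn6, counted from 1.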

Additional observations from a re-analysis of the deposited data

Results flagged for a closer look

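Some regions were past the limits in opposite directions with the 2 agents. Against the respective controls 111 of the 776 regions up with sevoflurane were down with desflurane, where 17.7% of all 5368 regions were. Of the 750 down with sevoflurane 99 were up with desflurane, where 21.3% of all regions were. Both parts are below those shares, and opposite calls of genes are not given here. Among the 1066 consistently assembled regions the opposite calls were 3 of 32 and 0 of 27, where 28 of the 1066 were down and 45 up with desflurane. One of the 3 was chr14:46329443-46330092, within 500 kb of an annotated ribosomal RNA row, with a log2 difference of 1.01 for sevoflurane and -2.21 for desflurane. The others were chr4:65086532-65088047 near Akr1d1, with 4.36, 10.2, 8.92 and 4.16 TPM in the order sevoflurane control, sevoflurane 6 h, desflurane control and desflurane 6 h, and chr7:73222293-73246983 near Rpl30, with 2.26, 4.69, 4.19 and 1.72 TPM. By coverage per aligned Gb the sevoflurane ratio of the first was 1.95, under the limit. These opposite directions were not tested.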

How the results depend on the processing

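No paired analysis was possible because each condition has 1 library and the labels carry no replicate numbers. For the same reason no library could be left out. In the order up and down with sevoflurane, then up and down with desflurane, against the respective controls, the counts with FPKM in place of TPM were 308, 315, 369 and 326. The limit of 2 is stricter on that scale. With a row in all 4 libraries they were 191, 177, 279 and 156, and for consistently assembled regions 32, 27, 45 and 28. Against both controls FPKM gave 186, 120, 217 and 125, a row in all 4 libraries 61, 78, 119 and 55, and consistent assembly 12, 16, 24 and 5. For both agents up and down, FPKM gave 57 and 56, a row in all 4 libraries 39 and 16, and consistent assembly 8 and 2. Between controls, the sevoflurane and desflurane control were higher in 351 and 272 regions with FPKM, 167 and 185 with a row in all 4 libraries, and 20 and 31 when consistently assembled. With coverage per aligned Gb in place of TPM among consistently assembled regions, the same counts were 39, 43, 50 and 55 against the respective controls, 17, 17, 19 and 29 against both controls, 7 and 4 for both agents, and 68 and 29 between controls. Of all regions 2672 had a row in all 4 libraries, 1066 were consistently assembled and 3545 lay at least 10 kb from annotated rows. Of the latter 507 were up with sevoflurane, 291 were up with it and 155 down with desflurane against both controls, 104 were up and 85 down with both agents, and 449 were higher in the sevoflurane control. Fewer regions enter each of these sets by construction. With the highest row in place of the sum, chr4:150547471-150616904 turned to a log2 difference of 0.0063 with sevoflurane and 0.0935 with desflurane. The settings on rows in all libraries, consistent assembly, coverage ratios and the highest row were chosen after seeing the data. The low median coverage limits what weakly expressed regions can show.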
